A study of Homo sapiens with 12 samples.

Results

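The genes described here are the ZNF genes, human genes named for zinc fingers, measured in HepG2 cells that have or lack ATP7B, a copper exporter. They were chosen by name and level: the symbol is ZNF followed by digits, or by digits and 1 letter, and the mean over 12 libraries is at least 5 CPM (a gene's counts scaled to the same total in each library). Of 548 such symbols among the 47634 gene identifiers counted, 76 had 0 counts in all 12 libraries, 276 had counts but a mean under 5 CPM, and 196 are members. The members are 190 protein-coding genes and 6 genes annotated as pseudogenes. Just inside the floor were ZNF385B, ZNF772 and ZNF324 with means of 5.28, 5.17 and 5.13 CPM, and just outside were ZNF626, ZNF746 and ZNF620 with 4.91, 4.75 and 4.75 CPM. The level chose the members, so nothing below rests on their being expressed. A gene that is low in 1 group can pass this floor through the other groups, and the part of this in the shifts below was not tested.

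HepG2 is a human hepatocellular carcinoma line that keeps many liver functions, and ATP7B is the copper-transporting ATPase that is mutated in Wilson disease. The 4 groups had 3 libraries each: untreated wild type HepG2 cells, wild type cells given copper for 24 h, untreated ATP7B knockout (KO) HepG2 cells, and KO cells given copper for 24 h. The labels call the libraries biological replicates, give no copper dose, and do not say how the gene was edited or how many clones the KO cells came from. Where nothing says that they came from separate cultures, p-values measure only the spread between these samples.

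As background, most ZNF proteins carry repeated C2H2 zinc fingers, in which a pair of cysteines and a pair of histidines hold a zinc ion and the loop between them reads DNA, or in some members RNA. The largest subfamily joins a finger array to a KRAB domain at the N terminus. KRAB recruits TRIM28, also called KAP1, which brings the histone methyltransferase SETDB1, HP1 proteins and histone deacetylases, and this silences transposable elements and some genes. KRAB zinc finger genes multiplied by tandem duplication and stand in clusters, many of them on chromosome 19. Related members share sequence, so reads that fit several copies could have been split or dropped in counting, and the value of a single cluster member is uncertain to that extent. The same holds for members that overlap another gene, since no source used here gives the strand setting.

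A protein sequence could be derived for 190 members from the GENCODE v29 transcripts. A KRAB A box was found by a short residue pattern in 73 of them and not found in 117. The median number of C2H2 fingers was 9, with 11 in members with the KRAB pattern and 7 in the others, and the most was 31, in ZNF91 and ZNF142. The 5 members ZNF330, ZNF451, ZNF503, ZNF703 and ZNF839 had 0 fingers of the classical spacing in the 1 protein scanned per gene. For ZNF451 that protein had 559 residues, and other protein forms of a gene were not searched. RefSeq placed 72 members (36.7%) on chromosome 19, of which 44 had the KRAB pattern. Chromosome 16 followed with 16 members and chromosome 7 with 14.

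The 250 bases before the transcription start are shown for 4 members whose values set the groups apart: ZNF430, which had the largest rise with copper in wild type cells, ZNF773 and ZNF217, whose copper effect differed between the lines, and ZNF766, the member that passed the test in opposite directions in the 2 lines. They come from RefSeq on GRCh38.p14 and are written 5′ to 3′ on the gene's strand, in lower case. Capitals mark matches to any of 5 motifs searched on both strands, which are spelled out with their shares in all promoters further on. ZNF430 spans chr19:21020407-21020656 on the plus strand, ZNF773 chr19:57499688-57499937 on the plus strand, ZNF766 chr19:52269337-52269586 on the plus strand and ZNF217 chr20:53593840-53594089 on the minus strand.
ZNF430: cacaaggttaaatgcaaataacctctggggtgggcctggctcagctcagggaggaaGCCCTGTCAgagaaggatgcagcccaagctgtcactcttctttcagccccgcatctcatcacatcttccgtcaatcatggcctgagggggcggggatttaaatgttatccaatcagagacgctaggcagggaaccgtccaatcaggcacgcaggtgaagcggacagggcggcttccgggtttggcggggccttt
ZNF773: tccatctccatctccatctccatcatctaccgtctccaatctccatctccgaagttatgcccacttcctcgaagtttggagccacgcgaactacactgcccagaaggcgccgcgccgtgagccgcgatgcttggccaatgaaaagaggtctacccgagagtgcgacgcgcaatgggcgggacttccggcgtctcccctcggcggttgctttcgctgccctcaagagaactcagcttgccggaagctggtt
ZNF766: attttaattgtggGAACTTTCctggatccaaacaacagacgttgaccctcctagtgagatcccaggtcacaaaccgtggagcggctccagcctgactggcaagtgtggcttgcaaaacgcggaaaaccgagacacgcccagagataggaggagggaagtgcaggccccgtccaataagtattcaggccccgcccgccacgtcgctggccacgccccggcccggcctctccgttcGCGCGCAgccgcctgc
ZNF217: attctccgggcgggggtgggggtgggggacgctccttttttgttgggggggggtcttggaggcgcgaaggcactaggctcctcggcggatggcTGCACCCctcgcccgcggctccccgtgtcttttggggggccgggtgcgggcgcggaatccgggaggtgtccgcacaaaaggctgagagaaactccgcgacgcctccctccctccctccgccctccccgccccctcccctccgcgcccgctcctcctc
The match in ZNF430 is to the antioxidant element, 194 to 186 bases before the start on the opposite strand. ZNF766 has a match to the heat shock element at 237 to 230 bases and one to the metal response element at 16 to 10 bases before the start, and ZNF217 one to the metal response element at 157 to 151 bases. ZNF773 has none, which says only that these letters are not in the window.

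Libraries held 976658 to 3829151 counts, so that 3 counts equal 0.783 to 3.07 CPM. ATP7B was counted in every library, at 12.4 to 13.1 CPM in untreated wild type cells and 2.05 to 11.6 CPM in untreated KO cells (log2 fold change -0.75 ± 0.38 SE, adjusted p = 0.15), and a 3′ read outside the edited stretch checks nothing. A set of 3 libraries stood apart from the other 9: wild type copper replicate 1 and KO untreated replicates 1 and 2. Ribosomal protein genes took 8.89%, 5.75% and 4.99% of their counts and 9.65% to 13.5% in the other 9. The 3 libraries also held the fewest counts, 1873703, 1443372 and 976658. By chi-square per degree of freedom, larger where 2 libraries differ more, KO untreated replicates 1 and 2 were close to each other (6.11). Replicate 3 was far from both (52.2 and 44.0) and is the odd one of that group, so the fit without the 3 is not the cleaner one. Each result is therefore given with all 12 libraries and, where it matters, with the 9 others. In that 9-library fit KO untreated replicate 3 stands alone in its group, and its spread is taken from that of the remaining groups. The 10 hepatocyte markers summed to 27562 to 27956 CPM in untreated wild type, 12064 to 13478 CPM in wild type copper, 10231 to 13958 CPM in untreated KO and 4952 to 5053 CPM in KO copper libraries, none of them at 0. The 3 endothelial markers of 4 that matched an identifier summed to at most 10.2 CPM with KDR at 0, PTPRC was at most 0.281 CPM and CD3E at 0, and the 5 leukocyte markers summed to 186 to 1469 CPM, nearly all of it LYZ. Fibroblast and stellate markers summed to 22.6 to 107 CPM. The markers did not move alike: between untreated wild type and untreated KO libraries the mean of ALB went from 6876 to 999.7 CPM and that of AHSG from 9206 to 2439 CPM, while APOB went from 1896 to 3061 CPM, SERPINA1 from 541 to 680 CPM and FGB from 213 to 264 CPM. The part of these markers in the results below was not tested, and in such bulk samples fewer cells of a type and less RNA per cell cannot be told apart.

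The ZNF genes took a small share of each library and took least of it in untreated wild type cells. Their counts made up 0.464%, 0.446% and 0.469% of all counts in untreated wild type replicates 1 to 3. In wild type copper libraries the share was 0.609%, 0.526% and 0.500%. It was 0.707%, 0.752% and 0.558% in untreated KO and 0.508%, 0.535% and 0.534% in KO copper libraries. All 9 treated or KO libraries lay above all 3 untreated wild type libraries, and the 3 libraries that stood apart were the 3 highest. Other shares split the same way: mitochondrial genes took 2.97% to 3.80% of counts in untreated wild type and 5.82% to 9.46% in the 9 other libraries, and ribosomal protein genes 12.3% to 13.5% against 4.99% to 11.4%. The part of these in the shift of the ZNF genes was not tested. On the log2 scale after TMM scaling (trimmed mean of M values), the median member lay 0.36, 0.28 and 0.26 above its untreated wild type mean in wild type copper replicates 1 to 3. The corresponding medians were 0.14, 0.44 and 0.12 in untreated KO and 0.28, 0.27 and 0.27 in KO copper libraries, while over all 11051 tested genes the median lay between -0.12 and 0.01 in each library.

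**Figure D1:**
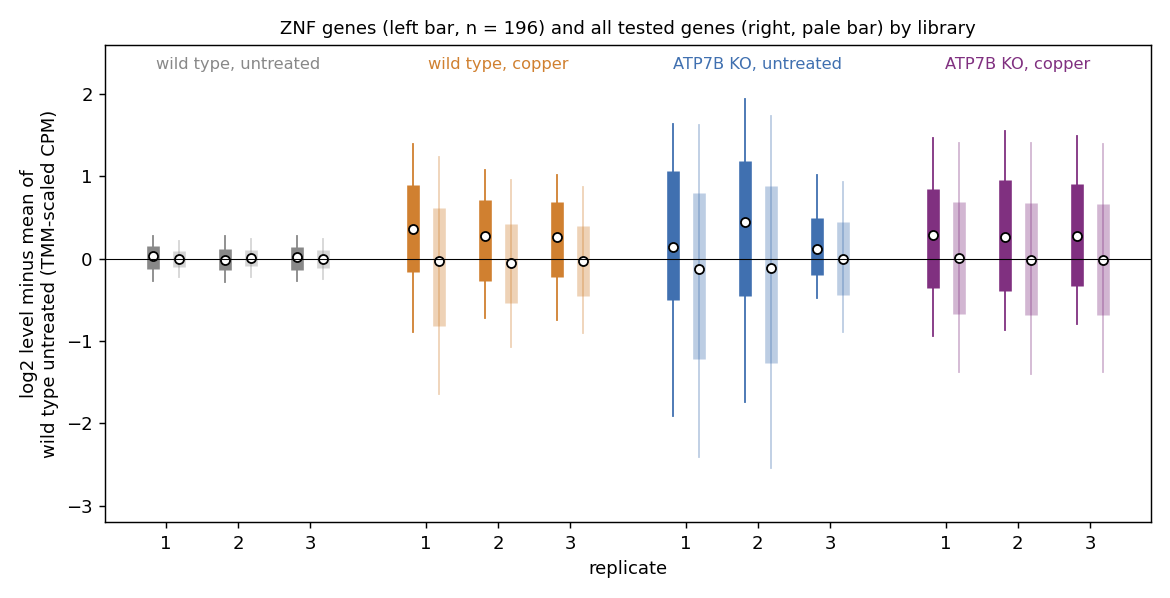
Levels of the 196 ZNF genes (solid bars) and of all tested genes (pale bars) in each library, as log2 of the TMM-scaled CPM minus the mean of the 3 untreated wild type libraries. Circles are medians, thick bars the middle 50% and thin lines the 10th to 90th percentile of genes. The ZNF median is above 0 in all 9 treated or KO libraries, and KO untreated replicates 1 and 2 have the widest spread.

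Single members varied more between replicates in untreated KO cells than elsewhere. The median SD of a member's log2 level was 0.22 in untreated wild type, 0.34 in wild type copper, 0.62 in untreated KO and 0.23 in KO copper libraries. Over all tested genes the median SD in untreated KO was 0.63. Of the members, 23 (11.7%) were over 2-fold higher in both KO untreated replicates 1 and 2 than in replicate 3, and 27 (13.8%) over 2-fold lower, where all tested genes gave 11.8% and 19.2%.

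With copper in wild type cells more ZNF genes rose than fell. Of the 196, all of which passed the low-count filter, 20 (10.2%) rose and 4 (2.04%) fell at an adjusted p under 0.05, against 8.23% of all tested genes that rose and 6.68% that fell. The median log2 fold change was 0.32 over the members and -0.03 over all tested genes, and 134 members lay above 0. In the 9-library fit 64 members rose and 18 fell, against 20.4% and 19.6% of all tested genes, with the same median of 0.32. All 24 members that passed with 12 libraries passed in the same direction with 9. The median stayed between 0.27 and 0.37 when any 1 library was left out.

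Those counts depend on single libraries. No share of all tested genes is given for the fits that left out 1 library, here or below. Their counts of members are thus no result about the family. Without untreated wild type replicate 1, 2 or 3 the number that rose was 7, 5 or 9, without wild type copper replicate 1 or 2 it was 13 or 11, and without KO copper replicate 2 or 3 it was 13. It was 34 without KO untreated replicate 2 and 57 without KO untreated replicate 3. The number that fell was 2 without untreated wild type replicate 2 or 3 or wild type copper replicate 2, 7 without KO untreated replicate 1 and 14 without KO untreated replicate 3.

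The largest rise with copper in wild type cells was that of ZNF430, a KRAB zinc finger gene of a chromosome 19 cluster. Its levels were 20.3, 13.3 and 15.2 CPM untreated and 116, 78 and 86.8 CPM with copper. The KO levels were 72.1, 66.6 and 33.3 CPM untreated and 90.5, 111 and 92 CPM with copper. Untreated wild type libraries were thus the only low ones, and no library of the other 3 groups overlapped them. The wild type rise passed (log2 fold change 2.55 ± 0.32 SE, adjusted p = 0.00049), also without any 1 library, and ZNF430 was also higher in the untreated KO than in the untreated wild type line (log2 fold change 1.68 ± 0.32 SE, adjusted p = 0.0033). The further rise with copper in KO cells of 0.89 ± 0.31 (SE, adjusted p = 0.042) passed in 5 of the 12 fits that left out 1 library, where adjusted p ran from 0.033 to 0.12.

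ZNF773, a KRAB member, rose from 9.49, 7.83 and 7.30 to 38.4, 23.1 and 30.2 CPM with copper in the wild type line (log2 fold change 1.92 ± 0.28 SE, adjusted p = 0.0011). Its KO levels, 23.6, 15.4 and 16.8 CPM untreated and 12.8, 18.8 and 17.5 CPM with copper, lay above all untreated wild type libraries and, but for KO untreated replicate 1, below all wild type copper libraries. ZNF724, of the same subfamily, rose from 3.16, 3.66 and 1.40 to 12.3, 11.8 and 10.5 CPM (log2 fold change 2.06 ± 0.40 SE, adjusted p = 0.0056). The untreated values rest on 5 to 14 counts each. ZNF622 has few fingers and is not a DNA-binding repressor but a factor in the maturation of the large ribosomal subunit. It rose from 20.8, 20.6 and 28.1 to 79, 62.7 and 61.6 CPM (log2 fold change 1.58 ± 0.32 SE, adjusted p = 0.0076) and the groups did not overlap. In KO cells ZNF622 was at 52, 42 and 19.5 CPM untreated and 33.5, 42.7 and 43.8 CPM with copper, which overlapped (log2 fold change 0.21 ± 0.33 SE, adjusted p = 0.64), and without the 2 KO libraries that stood apart the copper change was 1.20 (adjusted p = 7.9e-05). Another 4 of the 8 largest rises lost their call without some single library: ZNF114 (2.31 ± 0.51 SE, adjusted p = 0.011) passed in 10 of 12 such fits, the pseudogene ZNF731P (2.16 ± 0.60 SE, adjusted p = 0.03) in 7, ZNF266 (1.48 ± 0.43 SE, adjusted p = 0.036) in 5 and ZNF697 (1.31 ± 0.40 SE, adjusted p = 0.044) in 4. The adjusted p ran from 0.0021 to 0.056 for ZNF114, 0.00085 to 0.13 for ZNF731P, 0.01 to 0.15 for ZNF266 and 0.0004 to 0.19 for ZNF697.

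The 4 members that fell with copper in wild type cells were ZNF512B, ZNF747, ZNF395 and ZNF496. ZNF512B went from 56.9, 44.7 and 64.9 CPM to 16.5, 24.8 and 20.5 CPM in wild type and from 90.1, 87 and 89.4 CPM to 33.8, 34.7 and 33 CPM in KO cells. In each line every copper library was below every untreated one, and the 3 untreated KO libraries were close together although 2 of them stood apart otherwise. The falls were -1.40 ± 0.20 (SE, adjusted p = 0.0011) and -1.27 ± 0.20 (SE, adjusted p = 0.00076), and both passed without any 1 library. ZNF395, a gene induced by hypoxia that encodes a DNA-binding activator, was at 118, 109 and 126 CPM in untreated wild type and 57.6, 56.6 and 40.3 CPM in wild type copper libraries. KO cells had 21.5, 17.4 and 22 CPM untreated and 8.90, 12.1 and 13.1 CPM with copper. The 4 groups followed each other without overlap, with untreated wild type highest and KO copper lowest. The copper fall was -1.17 ± 0.20 (SE, adjusted p = 0.0029) in wild type and -0.73 ± 0.23 (SE, adjusted p = 0.028) in KO cells, the second of which passed in 8 of 12 fits that left out 1 library (adjusted p from 0.025 to 0.12). KO against wild type cells differed by -2.65 ± 0.22 (SE, adjusted p = 2.5e-05) untreated and by -2.21 ± 0.22 (SE, adjusted p = 0.00011) in copper, the largest falls among members in both comparisons with 12 libraries. With 9 libraries ZNF792, named here after its values were seen, changed more than ZNF395 in untreated KO against wild type cells, at -3.42 against -2.62. ZNF792 was at 13.7, 11.2 and 10.4 CPM in untreated wild type and 2.08, 12.3 and 1.22 CPM in untreated KO libraries. Its 9-library value rests on KO replicate 3 alone, where 3 counts equal 0.915 CPM, and KO replicate 2 lay within the wild type range. Its 12-library value of -1.66 ± 0.67 (SE, adjusted p = 0.076) did not pass. ZNF747 changed by -1.36 ± 0.37 (SE, adjusted p = 0.027) in wild type and -1.76 ± 0.35 (SE, adjusted p = 0.0026) in KO cells, and ZNF496 by -1.13 ± 0.34 (SE, adjusted p = 0.041) and -1.11 ± 0.36 (SE, adjusted p = 0.032), the latter -0.56 (adjusted p = 0.28) with 9 libraries. In wild type cells those calls passed in 7 and 3 of the 12 fits, with adjusted p from 0.015 to 0.11 and from 0.011 to 0.17.

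**Figure D2:**
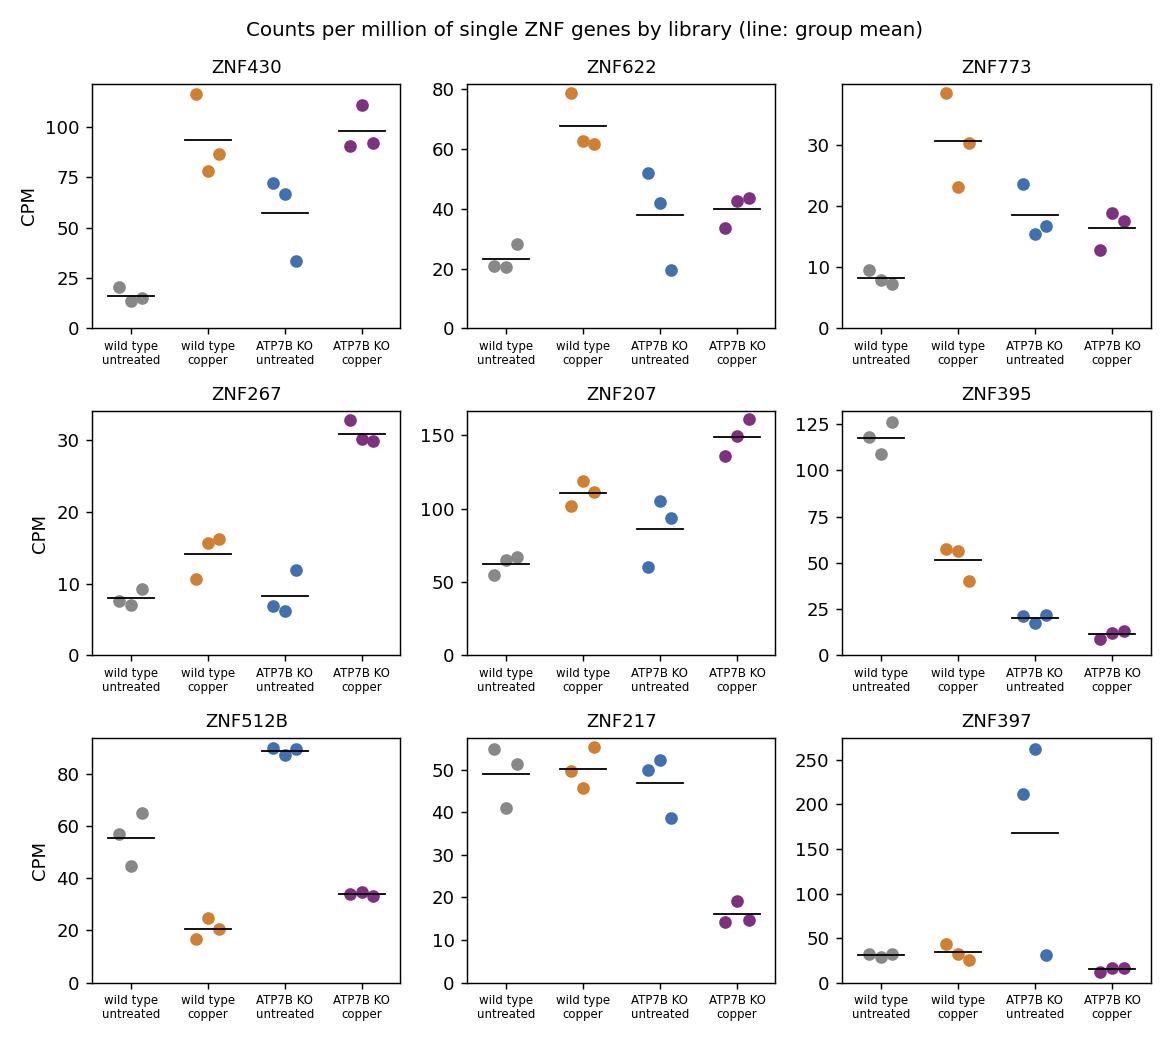
CPM of 9 ZNF genes in the 12 libraries, points for libraries and lines for group means, each panel on its own axis from 0. ZNF430 is low in the untreated wild type libraries alone, ZNF395 steps down over the 4 groups, ZNF217 is low in the KO copper libraries alone, and ZNF397 is high in KO untreated replicates 1 and 2.

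In KO cells with copper as many ZNF genes rose as fell. With 12 libraries 26 members (13.3%) rose and 26 fell, against 15.2% of all tested genes that rose and 18.5% that fell. The median log2 fold change was -0.11 over members and 0.01 over all tested genes. In the 9-library fit 44 rose and 29 fell, against 19.1% and 20.5%, and the median was 0.03, so the sign of the median turned with the libraries used. Of the 26 that rose 23 passed in the same direction with 9 libraries, and of the 26 that fell 17. The number that rose was 15 without KO copper replicate 1 or 3 and 41 without KO untreated replicate 3. The number that fell was 17 without KO untreated replicate 1, 15 without KO copper replicate 1 or 2, 16 without KO copper replicate 3 and 55 without KO untreated replicate 3.

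ZNF267, a KRAB member described in activated hepatic stellate cells, rose in KO cells in all 12 fits that left out 1 library, and with 9 libraries by 1.55 (adjusted p = 1.4e-05). It was at 6.93, 6.14 and 11.9 CPM untreated and 32.8, 30.1 and 29.9 CPM with copper, where every copper library was more than 2-fold above every untreated one (log2 fold change 1.93 ± 0.28 SE, adjusted p = 0.0004). In wild type cells it went from 7.64, 7.05 and 9.27 to 10.7, 15.7 and 16.3 CPM (log2 fold change 0.86 ± 0.27 SE, adjusted p = 0.047), a call that passed in 4 of 12 fits that left out 1 library (adjusted p from 0.0083 to 0.18). ZNF721, which has 23 fingers, was at 2.08, 7.17 and 5.49 CPM in untreated and 22.1, 20.9 and 28.3 CPM in copper-treated KO cells (log2 fold change 2.41 ± 0.34 SE, adjusted p = 0.00038). It had 12.1, 10.4 and 11.2 CPM in untreated wild type cells, above all 3 untreated KO libraries (log2 fold change -1.35 ± 0.34 SE, adjusted p = 0.012). ZNF669 rose in KO cells from 0.693, 2.05 and 4.27 to 16, 11.7 and 14.7 CPM (log2 fold change 2.49 ± 0.42 SE, adjusted p = 0.001), where untreated replicates 1 and 2 hold 1 and 2 counts.

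Several large copper changes in KO cells were smaller without KO untreated replicates 1 and 2. Among the rises, ZNF394, ZNF226, ZNF678, ZNF419 and ZNF92 had their lowest KO levels in those 2 libraries: ZNF419 was at 1.39, 0 and 18.6 CPM untreated and 36.3, 27.6 and 29.5 CPM with copper (log2 fold change 2.02 ± 0.68 SE, adjusted p = 0.037), and 0.93 (adjusted p = 0.0024) in the 9-library fit. That call passed in 3 of the 12 fits that left out 1 library. The others also passed with 9 libraries, ZNF394 at 1.43 (adjusted p = 0.001), ZNF226 at 1.38 (adjusted p = 0.00038), ZNF678 at 1.68 (adjusted p = 0.001) and ZNF92 at 0.96 (adjusted p = 0.012), where with 12 they were at 2.24, 2.23, 2.14 and 1.91. Among the falls, ZNF397, a SCAN zinc finger gene, was at 211, 262 and 31.4 CPM untreated and 12.5, 16.7 and 16.7 CPM with copper. Its fall was -3.36 ± 0.60 (SE, adjusted p = 0.0016) with 12 libraries and -0.87 (adjusted p = 0.0034) with 9. ZNF787 was at 491, 641 and 137 CPM untreated and 112, 101 and 114 CPM with copper, a fall of -1.87 ± 0.50 (SE, adjusted p = 0.013) that became -0.15 (adjusted p = 0.45) with 9 libraries. ZNF784 (from -1.91 to -0.74, adjusted p = 0.0014), ZNF652 (from -1.83 to -0.87, adjusted p = 5e-05), ZNF358 (from -1.74 to -1.01, adjusted p = 9.5e-05) and ZNF219 (from -1.66 to -0.91, adjusted p = 9.3e-06) kept their fall at a smaller size. ZNF704 fell from 23.6, 15.4 and 15.6 to 3.92, 6.28 and 2.79 CPM (log2 fold change -1.94 ± 0.38 SE, adjusted p = 0.0027), with a change of -1.67 (adjusted p = 0.0007) with 9 libraries.

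With copper 7 members rose in both lines, which is 35% of the 20 that rose in wild type and 26.9% of the 26 that rose in KO cells: ZNF207, ZNF430, ZNF562, ZNF697, ZNF267, ZNF731P and ZNF266. Another 4 fell in both, ZNF395, ZNF512B, ZNF496 and ZNF747, and ZNF766 alone passed in opposite directions. Of all tested genes 4.41% rose in both lines, which is 53.5% of the wild type and 29.1% of the KO rises, against 3.57% of the members, and 3.31% fell in both against 2.04%. In the 9-library fit 37 members (18.9%) rose in both lines and 9 (4.59%) fell in both, against 12.2% and 11.9% of all tested genes, and 1 went opposite ways. No test of the difference between members and all genes was made. The 2 copper effects share no library. Across the 196 members they had a Pearson r of 0.31 with 12 libraries and 0.66 with 9, where all tested genes gave 0.43 and 0.71, all as a description over genes that share the same libraries.

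**Figure D3:**
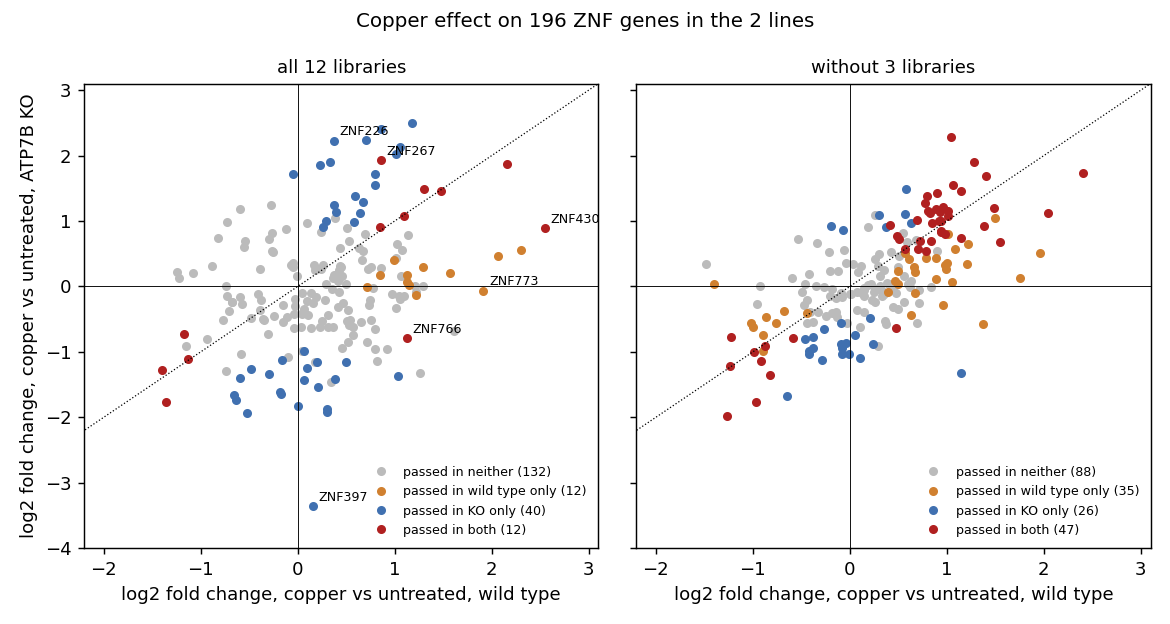
Log2 fold change with copper in wild type (horizontal) and KO cells (vertical) for the 196 ZNF genes, with 12 libraries (left) and 9 (right), and the line of equal change dotted. Colours show in which line the change passed at an adjusted p under 0.05. The number that passed in both lines is 12 on the left and 47 on the right.

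ZNF207, known as BuGZ, binds microtubules and the spindle checkpoint protein BUB3. It was at 54.8, 64.8 and 67.1 CPM in untreated and 102, 119 and 111 CPM in copper-treated wild type cells, and at 60.3, 105 and 93.4 and 136, 149 and 161 CPM in KO cells. In each line all copper libraries were above all untreated ones. The changes were 0.85 ± 0.21 (SE, adjusted p = 0.017) and 0.90 ± 0.21 (SE, adjusted p = 0.0065). The wild type call was lost without untreated wild type replicate 1 or 2 or wild type copper replicate 2, at adjusted p = 0.09, 0.062 and 0.066, and the KO call was kept in all 12 such fits.

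With all 12 libraries untreated KO cells differed from untreated wild type cells mainly by ZNF genes that were higher. This comparison shares the untreated wild type libraries with that of copper in wild type cells. It shares the untreated KO libraries with that of copper in KO cells. With 12 libraries 49 members (25%) were higher and 6 (3.06%) lower, against 17.9% and 14.0% of all tested genes, with medians of 0.34 over members and -0.02 over all tested genes. In the 9-library fit, where 1 KO library was left, no larger share of members than of all tested genes was higher. The median there was 0.11 over members and -0.00055 over all tested genes. Of the 49 higher members, 18 passed again there and 46 kept the sign. The number higher was 23, 20 or 19 without untreated wild type replicate 1, 2 or 3 and 24 or 23 without KO untreated replicate 1 or 2. The number lower was 30 without KO untreated replicate 3.

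ZNF385B had 1.85, 2.09 and 0.562 CPM in untreated wild type and 13.2, 11.3 and 12.2 CPM in untreated KO libraries. All 3 KO libraries were alike and above every wild type one (log2 fold change 2.85 ± 0.43 SE, adjusted p = 0.00096), and the 9-library value was 2.77 (adjusted p = 2.6e-05). The untreated wild type levels are 2 to 8 counts. With a mean of 5.28 CPM, ZNF385B passed the floor of 5 CPM only through libraries outside untreated wild type, so its rise is no support for a shift of the family. ZNF224, known as a repressor of the glycolytic gene ALDOA, was at 7.38, 10.2 and 7.30 CPM in wild type and 48.5, 155 and 18.3 CPM in KO cells (log2 fold change 3.0 ± 0.62 SE, adjusted p = 0.0046), with a 9-library value of 0.93 (adjusted p = 0.012). ZNF268, with 24 fingers, was higher in KO cells both untreated, at 33.9, 26.6 and 29.3 against 12.7, 12 and 14.9 CPM (log2 fold change 1.06 ± 0.25 SE, adjusted p = 0.0082), and in copper, at 15.7, 25.5 and 17.9 against 8.01, 10.5 and 11.6 CPM (log2 fold change 0.93 ± 0.26 SE, adjusted p = 0.034). The second call passed in 4 of 12 fits that left out 1 library (adjusted p from 0.02 to 0.15). The chromosome 19 genes ZNF440, ZNF114, ZNF649, ZNF324, ZNF780A and ZNF776 were also among the 8 largest rises whose libraries did not overlap, at log2 fold changes of 1.78 to 2.59. With 9 libraries ZNF440 (1.16, adjusted p = 0.15) and ZNF324 (1.32, adjusted p = 0.072) no longer passed.

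Lower in untreated KO cells, beside ZNF395 and ZNF721, were ZNF581, ZNF768, ZNF331 and ZNF580. ZNF581 was at 59.6, 61.4 and 53.6 CPM in wild type and 15.9, 8.19 and 31.4 CPM in KO cells untreated, and at 39, 37 and 37.6 and 17.8, 15.5 and 14.7 CPM in copper. KO libraries were below wild type libraries in both treatments. The differences were -1.70 ± 0.32 (SE, adjusted p = 0.0029) untreated and -1.27 ± 0.32 (SE, adjusted p = 0.021) in copper. ZNF768 (-1.55 ± 0.36 SE, adjusted p = 0.0082), ZNF331 (-1.17 ± 0.36 SE, adjusted p = 0.029) and ZNF580 (-1.17 ± 0.31 SE, adjusted p = 0.015) had smaller differences with 9 libraries, and that of ZNF331, -0.54 (adjusted p = 0.099), did not pass.

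In copper the 2 lines differed in few ZNF genes. There 7 members (3.57%) were higher in KO and 9 (4.59%) lower, against 5.77% and 8.03% of all tested genes, with a median of -0.00019 over members and 0.05 over all tested genes. With 9 libraries 21 were higher and 29 lower, against 17.3% and 20.6%, with a median of 0.01. No call among the higher ones passed in all 12 fits that left out 1 library, and 2 of the lower ones did, ZNF395 and ZNF217. The number higher was 3 without any of the untreated wild type libraries, 0, 1 or 4 without wild type copper replicate 1, 2 or 3, 0, 1 or 1 without KO copper replicate 1, 2 or 3, and 11 or 13 without KO untreated replicate 1 or 3. The number lower was 5 without untreated wild type replicate 1 or 2, 3 or 5 without wild type copper replicate 1 or 2, 2, 3 or 2 without KO copper replicate 1, 2 or 3, and 29 without KO untreated replicate 3.

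**Figure D4:**
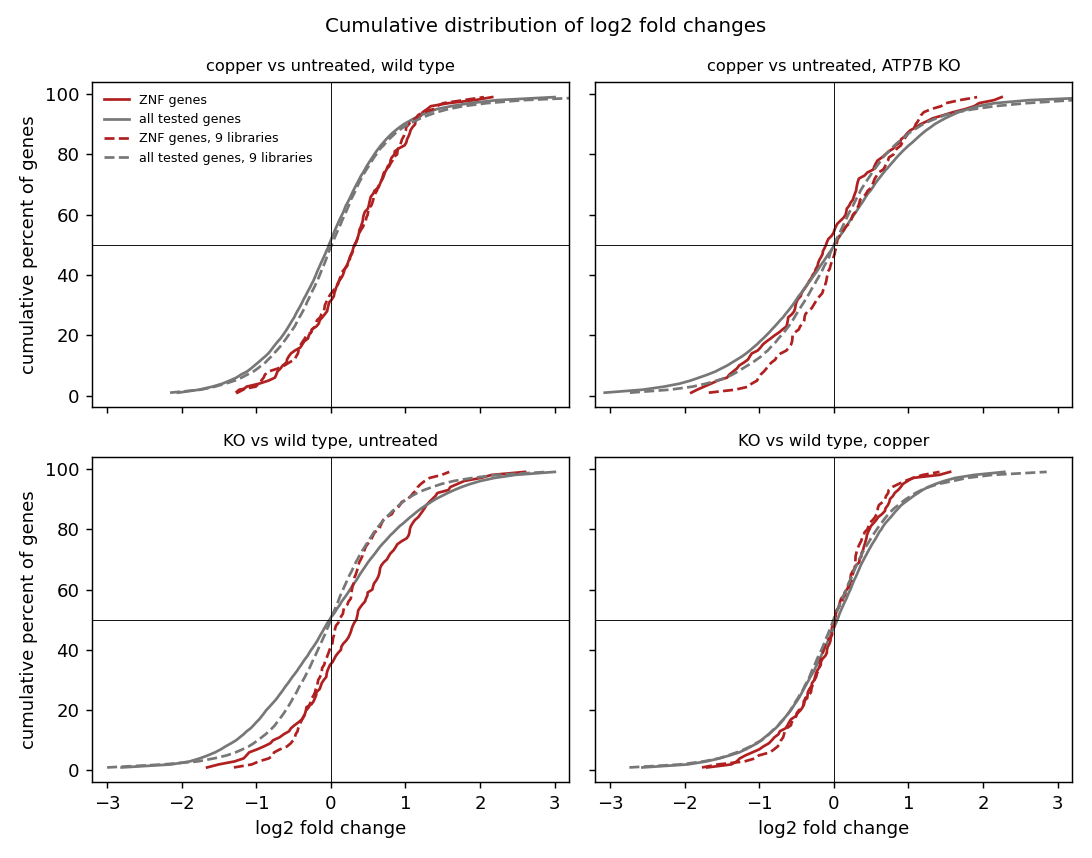
Cumulative distribution of log2 fold changes for the ZNF genes (red) and all tested genes (grey) in the 4 pairwise comparisons, with all libraries (solid) and with the 9-library fit (dashed); each curve gives the percent of genes at or below the value on the horizontal axis. At the median the solid red curve lies to the right of the grey one for copper in wild type cells and for untreated KO against wild type cells, and in the upper tail of both panels the curves cross.

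ZNF217 binds the CoREST and CtBP corepressors and is amplified in several carcinomas. It was at 54.8, 41 and 51.4 CPM in untreated and 49.6, 45.8 and 55.4 CPM in copper-treated wild type cells. The KO levels of ZNF217 were 49.9, 52.2 and 38.8 CPM untreated and 14.2, 19.3 and 14.7 CPM with copper. Only the KO copper libraries were low, with no overlap with the other 9. The change with copper was 0.06 ± 0.22 (SE, adjusted p = 0.88) in wild type and -1.42 ± 0.23 (SE, adjusted p = 0.00094) in KO cells, and KO against wild type cells in copper differed by -1.68 ± 0.23 (SE, adjusted p = 0.00082). With 9 libraries these values were 0.11 (adjusted p = 0.62), -1.10 (adjusted p = 0.0002) and -1.75 (adjusted p = 1.8e-09). ZNF703 and ZNF503, listed with it as corepressor factors, did not pass in any of the 4 comparisons with 12 libraries. ZNF703 was at 40.3, 42 and 43.2, 55, 61.4 and 50.3, 36.7, 29.7 and 137 and 72.7, 80.8 and 80.8 CPM in the 4 groups in that order, with KO untreated replicate 3 above all others. With 9 libraries ZNF703 passed in all 4 comparisons and ZNF503 for copper in wild type cells at -0.44 (adjusted p = 0.025).

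ZNF367, ZNF711, ZNF678, ZNF195 and ZNF267 were higher in KO than in wild type cells in copper, at log2 fold changes of 1.57, 1.56, 1.55, 1.40 and 1.08, and ZNF512B at 0.68. ZNF711, which binds the histone demethylase PHF8, was at 4.27, 12.6 and 9.68 CPM in wild type and 31.7, 21.8 and 27.9 CPM in KO cells. The lower members were, beside ZNF395, ZNF217 and ZNF581, ZNF704, ZNF444, ZNF358, ZNF579, ZNF773 and ZNF318, at -1.67, -1.30, -1.18, -0.95, -0.94 and -0.73. All 16 calls in copper were made in the same direction with 9 libraries.

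The test of the difference itself, the copper effect in KO minus that in wild type cells, passed below 0 for 8 members and above 0 for 0, against 3.67% and 1.26% of all tested genes. The median difference was -0.38 over members and 0.02 over all tested genes. The 0 is edgeR's, with 13 members above 0 at an unadjusted p under 0.05, 0 called by limma voom and 1 by DESeq2. With 9 libraries 12 passed below and 2 above 0, against 5.0% and 3.78%, with a median of -0.18. Without KO untreated replicate 3 the numbers were 67 and 31. The number below 0 was 0 without untreated wild type replicate 1, 2 or 3, wild type copper replicate 1 or 2, KO untreated replicate 1 or KO copper replicate 1, 2 or 3, and 1 without KO untreated replicate 2. ZNF766, a KRAB member, went from 18.5, 20.6 and 17.7 to 51.8, 38.3 and 32.5 CPM in wild type and from 54, 44 and 31.4 to 17.1, 23.4 and 28.3 CPM in KO cells. Its changes were 1.13 ± 0.28 (SE, adjusted p = 0.018) and -0.79 ± 0.28 (SE, adjusted p = 0.047), and the KO call passed in 2 of 12 fits that left out 1 library (adjusted p from 0.0023 to 0.18) and was -0.29 (adjusted p = 0.35) with 9 libraries. The difference for ZNF766 was -1.93 ± 0.40 (SE, adjusted p = 0.034), for ZNF773 -1.98 ± 0.40 (SE, adjusted p = 0.032) and for ZNF217 -1.49 ± 0.32 (SE, adjusted p = 0.034).

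A list of 30 ZNF genes with known roles held 24 members, and ZNF10, ZNF33B, ZNF93, ZNF202, ZNF354A and ZNF410 were below the floor. Of the 24, the wild type copper counts were 4 up and 1 down, 4 rose and 2 fell with copper in KO cells, and 4 were higher and 1 lower in untreated KO cells. All tested genes gave 8.23% and 6.68%, 15.2% and 18.5%, and 17.9% and 14.0% in the same order, so 4 of 24 is near the background in KO cells. Of the genes of RNA and ribosome biology, ZNF326, a subunit of the DBIRD complex that links splicing to transcript elongation, was at 27.7, 29.5 and 23 CPM in untreated wild type and 47, 46.6 and 48.8 CPM in wild type copper libraries. The KO levels were 66.5, 63.5 and 73.2 and 69.1, 72.8 and 68.9 CPM, and all 9 libraries of the other groups were above the untreated wild type ones. It rose with copper in wild type (log2 fold change 0.85 ± 0.17 SE, adjusted p = 0.0075), differed between the untreated lines (log2 fold change 1.21 ± 0.18 SE, adjusted p = 0.0007), and both calls passed without any 1 library. ZNF598, the ubiquitin ligase that marks collided ribosomes, had a wild type copper value of 0.63 ± 0.24 (SE, adjusted p = 0.097), and ZNF593, a factor of large ribosomal subunit maturation, 0.38 ± 0.28 (SE, adjusted p = 0.39). Neither passed in any of the 4 comparisons with 12 libraries, and with 9 the wild type copper value of ZNF598 passed at 0.89 (adjusted p = 0.00026). ZNF638, ZNF106 and ZNF644 were higher in untreated KO cells, at 0.65 ± 0.23 (SE, adjusted p = 0.047), 0.74 ± 0.25 (SE, adjusted p = 0.04) and 0.62 ± 0.20 (SE, adjusted p = 0.035). With 9 libraries the values were 0.08 (adjusted p = 0.76), 0.28 (adjusted p = 0.17) and 0.40 (adjusted p = 0.11), none of which passed, and in the 12 fits that left out 1 library they passed in 1, 4 and 3.

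Among DNA binders with known targets, ZNF281, which binds G-rich promoters, rose with copper in KO cells from 27, 29.7 and 42.7 to 71.6, 79.5 and 75.6 CPM (log2 fold change 1.29 ± 0.23 SE, adjusted p = 0.0015). In wild type cells it went from 42.7, 44.1 and 46.9 to 48, 78.4 and 83.3 CPM, which missed the threshold (log2 fold change 0.67 ± 0.22 SE, adjusted p = 0.06) and passed with 9 libraries at 0.92 (adjusted p = 3.4e-07). Its paralog ZNF148 had -0.62 ± 0.26 (SE, adjusted p = 0.081) in KO cells, and -0.03 (adjusted p = 0.9) with 9 libraries. ZNF91, which represses SVA retrotransposons, rose with copper in KO cells from 29.8, 20.5 and 31.4 to 45.9, 52.3 and 53.7 CPM (log2 fold change 1.0 ± 0.28 SE, adjusted p = 0.017) and had 0.29 ± 0.27 (SE, adjusted p = 0.49) in wild type cells. ZNF143 and ZNF76, activators of small nuclear RNA and other promoters, did not pass in any of the 4 comparisons with 12 libraries. With 9 libraries ZNF143 passed for copper at 0.69 (adjusted p = 0.021) in wild type and 1.02 (adjusted p = 0.012) in KO cells, and ZNF76 at -1.04 (adjusted p = 0.00099) for copper in KO cells and 1.15 (adjusted p = 0.00028) for untreated KO against wild type cells. ZNF274, which recruits SETDB1 to the ends of zinc finger genes, had 1.14 ± 0.43 (SE, adjusted p = 0.095) with copper in wild type cells and did not pass with 12 libraries. With 9 it passed in both lines, at 1.14 (adjusted p = 0.011) in wild type and 1.46 (adjusted p = 0.0091) in KO cells.

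The most highly counted members were ZNF428, ZNF787, ZNF451, ZNF106, ZNF219 and ZNF791. ZNF428 was at 207, 230.1 and 238 CPM in untreated wild type, 322, 284 and 282 CPM in wild type copper, 262, 203 and 364 CPM in untreated KO and 302, 301 and 307 CPM in KO copper libraries, and passed in none of the 4 comparisons with 12 libraries. With 9 it passed for copper in wild type cells at 0.39 (adjusted p = 0.00091) and for untreated KO against wild type cells at 0.49 (adjusted p = 0.00073). ZNF791, a KRAB member, rose with copper in wild type cells from 70.6, 68.2 and 64 to 176, 120.3 and 140.2 CPM (log2 fold change 1.13 ± 0.30 SE, adjusted p = 0.024), a call made in 8 of 12 fits that left out 1 library (adjusted p from 9.1e-05 to 0.083). KO libraries had 153, 140.3 and 67.4 and 132, 135 and 109 CPM, where the copper change was 1.07 (adjusted p = 1.3e-06) with 9 libraries. ZNF451, a SUMO ligase, had -0.61 ± 0.22 (SE, adjusted p = 0.052) with copper in KO cells, and -0.16 (adjusted p = 0.4) with 9 libraries.

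Members with the KRAB pattern had somewhat higher medians than the others in the comparisons with wild type untreated cells, which share those libraries. The others are members without a match in the 1 protein scanned, so KRAB genes can be among them. Of 73 KRAB members 11 rose and 1 fell with wild type copper treatment (median 0.38), against 7 and 3 of 117 others (median 0.26). With 9 libraries the medians were 0.48 and 0.22, and 0.01 over all tested genes. In untreated KO against wild type cells 23 KRAB members were higher and 1 lower (median 0.43), against 24 and 5 of the others (median 0.25). With 9 libraries those medians were 0.25 and 0.04, and -0.00055 over all tested genes. There the share of KRAB members that was higher lay nearer to that of all tested genes than with 12 libraries. With copper in KO cells 10 KRAB members rose and 6 fell, against 15 and 20. With 12 libraries 15.1% of KRAB members rose and 1.37% fell with copper in wild type cells, against 8.23% and 6.68% of all tested genes. In untreated KO 31.5% were higher and 1.37% lower, against 17.9% and 14.0%. With copper in KO cells 13.7% rose, near the 15.2% of all tested genes, and 8.22% fell, against 18.5%. A looser KRAB pattern, chosen after seeing the data, added ZNF224, ZNF226 and ZNF234 and gave 11 and 1 of 76 with copper in wild type cells. KRAB members were also counted lower, with a median of 10.7 against 19.9 CPM, and no test of the difference between the classes was made.

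Members on chromosome 19, a split made after seeing the data, had a higher median than the rest, with no test of the difference. Of those 72, 12 (16.7%) rose and 0 fell with copper in wild type cells, against 8.23% and 6.68% of all tested genes. Of the 72, 60 (83.3%) lay above 0 (median 0.49), against 48.5% of all tested genes. Of the 119 placed elsewhere 6 rose and 4 fell (median 0.18). With 9 libraries the medians were 0.56 on chromosome 19 and 0.15 elsewhere, against 0.01 over all tested genes, and some of the 72 fell. Of all tested genes 17.9% were higher and 14.0% lower in untreated KO against wild type cells. There 25 of the 72 (34.7%) were higher and 3 (4.17%) lower (median 0.53), against 22 and 3 of the 119 (median 0.25). The medians became 0.29 and 0.05 with 9 libraries. The 0 that fell are from edgeR's test with 12 libraries, where 2 were lower at an unadjusted p under 0.05, and DESeq2 and limma voom also called 0.

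By gene order, 88 members stood in 31 chains of members with at most 2 other protein-coding genes between neighbours, and the longest chain held 6. With copper in wild type cells 83.0% of chain members lay above 0 (median 0.40) against 56.5% of the 108 others, some of them not placed (median 0.12). With 9 libraries the shares were 78.4% and 56.5%. Of all tested genes 48.5% lay above 0 with 12 libraries. With copper in wild type cells most chains lay wholly above 0, though neighbours differed in size and in which of them passed. ZNF430 and ZNF714 both rose, and ZNF551, ZNF587, ZNF587B and ZNF776 ran from 0.17 to 1.29. Those 4 ran from 0.77 to 1.78 in untreated KO against wild type cells, where 3 were higher. ZNF124, ZNF496 and ZNF669 ran from -1.13 to 1.18 with copper in wild type cells. In the chain of 6, ZNF524, ZNF579, ZNF580, ZNF581, ZNF784 and ZNF865, the copper effect in KO cells ran from -1.91 to -0.09. There 1 member passed, and in untreated KO against wild type cells 1 was higher and 2 were lower. In the chain of ZNF121, ZNF266, ZNF426, ZNF561 and ZNF562, 2 of 5 rose with copper in each line, with values from 0.18 to 1.48 in wild type and from -1.16 to 1.46 in KO cells. In the chain of ZNF468, ZNF600, ZNF611, ZNF808 and ZNF83, 1 of 5 rose with copper in wild type cells, in a range of -0.15 to 1.06.

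The copper effect on ZNF genes went with the GC content of their transcripts, a relation looked at after seeing the data. In KO cells all tested genes split by GC in the same direction, so there the relation was not particular to ZNF genes. Transcript GC was known for 190 members, with a median of 46.0%, and for 10131 of 11051 tested genes, with a median of 48.9%. When members were ranked by GC and split in 3, in the lowest part (33.2% to 42.5%), 8 of 64 rose and 0 fell with copper in wild type cells, in the middle part 9 of 63 rose and 0 fell, and in the highest part (52.4% to 71.1%) 1 of 63 rose and 4 fell. In KO cells 11 rose and 5 fell in the lowest part, 10 and 7 in the middle and 4 and 14 in the highest. The 0 of the lowest part is edgeR's, with 1 member lower at an unadjusted p under 0.05 and 0 called by DESeq2 or limma voom, and the 0 of the middle part is edgeR's, with 6 lower at an unadjusted p under 0.05 and 0 called by DESeq2 or limma voom. With 9 libraries the median changes from the lowest to the highest part were 0.50, 0.31 and 0.15 in wild type cells. In KO cells they were 0.43, 0.16 and -0.31. All tested genes in the same GC ranges gave 0.09, -0.0012 and -0.09 in wild type and 0.18, 0.02 and -0.21 in KO cells. Across members Pearson's r between GC and the copper effect was -0.22 in wild type and -0.31 in KO cells, and -0.32 and -0.36 with 9 libraries. For the GC of the last 500 bases, nearest to where 3′ reads lie, r was -0.11 and -0.26, and -0.18 and -0.31 with 9 libraries.

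All tested genes showed less of this in wild type cells, with r of -0.01, and -0.06 with 9 libraries. In KO cells their r was -0.16, and -0.15 with 9 libraries. Of all tested genes in the lowest of the members' GC ranges 7.57% rose and 5.27% fell in wild type cells, and in the highest 8.15% rose and 7.63% fell. In KO cells 19.3% rose and 11.9% fell in the lowest range, against 11.9% and 25% in the highest. Between libraries of 1 group GC also moved: r between GC and the difference of wild type copper replicate 1 from replicates 2 and 3 was 0.29 over members and 0.15 over all tested genes. The differences of KO untreated replicates 1 and 2 from replicate 3 gave 0.07 and 0.01 over members. The part of base composition in library making in these values was not tested.

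**Figure D5:**
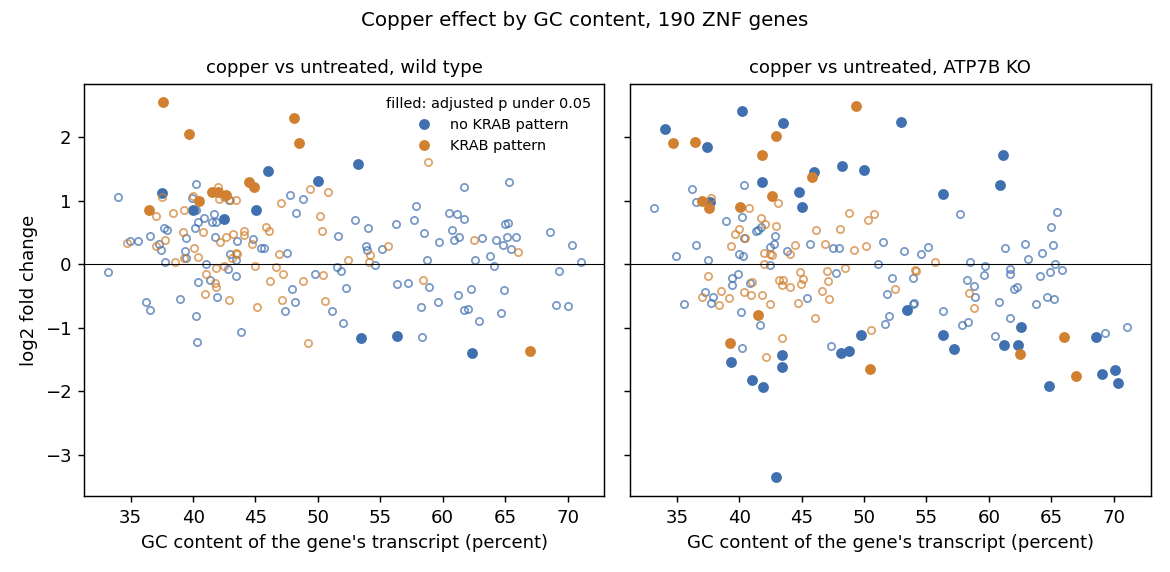
Log2 fold change with copper against the GC content of the transcript for 190 ZNF genes, in wild type (left) and KO cells (right); orange marks members with the KRAB pattern, blue the others, and filled points passed at an adjusted p under 0.05. The 4 members that fell in wild type cells are all in the highest of 3 parts by GC, and those that rose number 8 in the lowest part, 9 in the middle and 1 in the highest.

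RNA of the genes whose proteins KRAB members act through changed in mixed directions. Of 26 listed partners 25 were tested, and with copper 1 rose and 2 fell in wild type and 3 rose and 6 fell in KO cells, shares to be read against the background given above. In untreated KO cells 7 were higher and 2 lower. TRIM28, the KRAB corepressor, changed by -0.01 ± 0.22 (SE, adjusted p = 0.99) and 0.35 ± 0.22 (SE, adjusted p = 0.24) with copper in the 2 lines, and neither it nor SETDB1 passed in any of the 4 comparisons with 12 libraries. CBX5, which encodes HP1 alpha, fell with copper in both lines, with changes of -1.03 ± 0.19 (SE, adjusted p = 0.0044) and -1.38 ± 0.19 (SE, adjusted p = 0.00038), while MTA2, a NuRD subunit, rose in both, by 1.08 ± 0.28 (SE, adjusted p = 0.024) and 1.31 ± 0.28 (SE, adjusted p = 0.0045). TASOR, a subunit of the HUSH silencing complex, and the methyltransferase genes DNMT3A and EHMT2 fell with copper in KO cells, with changes of -1.10 ± 0.25 (SE, adjusted p = 0.0062), -1.42 ± 0.16 (SE, adjusted p = 0.00011) and -1.98 ± 0.36 (SE, adjusted p = 0.0017). RBBP4 and RBBP7 also fell there, at -1.06 and -1.52. MORC3 and PPHLN1 rose there, at 1.07 ± 0.26 (SE, adjusted p = 0.0082) and 0.96 ± 0.24 (SE, adjusted p = 0.0087). Values with 9 libraries are not given for these genes.

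Promoter windows from 250 bases before to 50 after the start were matched for 167 of the 196 members. The metal response element, TGCACNC or TGCGCNC, was found in 40.1% of them, against 29.3% of all 27305 promoters and 39.2% of those of tested genes. Of 17 matched members that rose with copper in wild type cells 4 had it, and of 22 that rose in KO cells 6, whereas 11 of 21 that fell in KO cells had it. The antioxidant element, TGACNNNGC, was in 16.8% of members, 13.6% of all promoters and 15.5% of those of tested genes. It was in 4 of the 17 and 4 of the 22 that rose and in 2 of the 21 that fell in KO cells. The heat shock element, GAANNTTC, was in 5.39% of members, 6.87% of all promoters and 4.35% of those of tested genes. It was in 3 of the 17, 1 of the 22 and 1 of the 21. AP-1, TGANTCA, was in 4.79% of members, 7.76% of all promoters and 4.28% of those of tested genes. It was in 0 of the 17, 3 of the 22 and 0 of the 21. The ATF4 element, TGATGNAA, was in 0.599% of members, 3.67% of all promoters and 1.69% of those of tested genes. No test of these shares was made. The metal response and heat shock motifs do not overlap each other in the windows printed above. A match is a string of letters and not a binding site.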

How the data were processed

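RNA from HepG2 cells was made into QuantSeq 3′ mRNA libraries and read as single ends, per the labels' protocols. Reads were aligned with STAR 2.3.0 and counted with HTSeq on hg19, per the submitters' processing notes. The deposited files hold raw counts per gene, as the authors left them. Reads at 3′ ends do not scale with gene length, so levels are given as CPM. Symbols matched 33934 of 47634 identifiers, which hold 98.9% of counts, through the GENCODE v29 annotation.

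All 12 libraries were fitted together with edgeR 4.0.16 (robust quasi-likelihood test, TMM scaling, R 4.3.3) on the 11051 genes that passed filterByExpr, with Benjamini-Hochberg adjustment over all of them and a threshold of 0.05; limma 3.58.1 voom, DESeq2 1.42.0, other scalings, filters, floors, a replicate block and left-out libraries were alternatives. The fit was tested on simulated counts. Fold changes are log2. Named members are the 8 largest non-overlapping calls per direction and comparison, the 5 of smallest adjusted p for the difference, the 6 highest, those at the floor and the role lists; ZNF318, ZNF792 and members named only for their chain, fingers, KRAB pattern or shared copper call fall outside it and were named after values were seen. The members and lists were chosen with earlier results of these data known. KRAB boxes and fingers were found in proteins translated from GENCODE v29 coding sequences. No coordinates were converted between hg19 and GRCh38.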

Additional observations from a re-analysis of the deposited data

Results flagged for a closer look

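The copper effect in KO cells was below that in wild type cells in 8 ZNF genes by edgeR's test of the difference (adjusted p under 0.05), given here as log2 differences. They are 4.08% of the 196, near the 3.67% of all tested genes, so the count is no result about the family. ZNF773 differed by -1.98 ± 0.40 (SE, adjusted p = 0.032), ZNF766 by -1.93 ± 0.40 (SE, adjusted p = 0.034) and ZNF217 by -1.49 ± 0.32 (SE, adjusted p = 0.034). With the 9-library fit these were -1.63 (adjusted p = 0.0039), -1.25 (adjusted p = 0.0068) and -1.21 (adjusted p = 0.0042). ZNF385B differed by -2.40 ± 0.63 (SE, adjusted p = 0.049), and by -2.47 (adjusted p = 0.027) with 9 libraries, on untreated wild type levels of 2 to 8 counts.

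The other 4 were smaller without the 3 libraries that stood apart. ZNF397 went from -3.52 ± 0.81 (SE, adjusted p = 0.039) to -0.83 (adjusted p = 0.078), ZNF784 from -2.22 ± 0.52 (SE, adjusted p = 0.04) to -0.80 (adjusted p = 0.028), ZNF652 from -1.83 ± 0.43 (SE, adjusted p = 0.04) to -0.79 (adjusted p = 0.016) and ZNF444 from -1.66 ± 0.43 (SE, adjusted p = 0.047) to -0.69 (adjusted p = 0.038). In the 12 fits that left out 1 library the 8 calls passed in 1 to 3 fits each, and adjusted p for ZNF773 ran from 0.00047 to 0.11. The part of KO untreated replicates 1 and 2 in the larger values was not tested.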

How the results depend on the processing

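Copper in wild type cells and untreated KO against wild type cells are both set against the same 3 untreated wild type libraries. Their shifts are thus not separate results. The median copper effect over the ZNF genes in wild type cells and the median KO difference in untreated cells were above 0 under every alternative run. With 1 library left out they ran from 0.27 to 0.37 and from 0.26 to 0.37, and the others from -0.19 to -0.0061 (copper in KO cells), from -0.06 to 0.08 (KO against wild type in copper) and from -0.51 to -0.27 (difference of copper effects). Counts that rose and fell then ran from 5 to 57 and 2 to 14 for copper in wild type cells, 15 to 41 and 15 to 55 for copper in KO cells, 19 to 71 and 5 to 30 for untreated KO, 0 to 13 and 2 to 29 for KO in copper, and 0 to 31 and 0 to 67 for the difference. Without the 3 libraries that stood apart, the counts were 64 and 18 for copper in wild type cells, 44 rose in KO cells, 30 and 12 for untreated KO, 21 and 29 for KO in copper and 2 rose for the difference. The medians there were 0.033 for copper in KO cells, 0.11 for untreated KO and -0.18 for the difference. No share of all tested genes is given for the alternative fits and floors that follow, nor for the replicate block. Their counts of members are thus no result about the family either. Fits of only the 2 groups compared gave 48 and 9, 11 and 15, 12 and 2, and 13 and 22 for the 4 comparisons in that order. DESeq2 gave 31 rises for copper in wild type cells and 1 and 22 for the difference, and limma voom gave 3 falls for the difference. Limma voom medians were 0.023 for copper in KO cells and -0.26 for the difference. With no low-count filter 13 fell in untreated KO, 15 in KO in copper, and the difference had 4 and 23. Library totals alone gave medians of -0.22 for copper in KO cells, 0.47 for untreated KO and -0.48 for the difference, of which 13 fell. A floor of 2 CPM gave medians of 0.0091 for copper in KO cells, 0.12 for KO in copper and -0.25 for the difference, with 11 higher in copper, and a floor of 10 CPM left 2 falls in wild type cells. For named members, the sign turned for ZNF346 (-0.56) and ZNF703 (-0.64) with copper in KO cells and for ZNF787 (-0.44) in untreated KO, all with 9 libraries, and for the ZNF703 difference, which ran from -0.49 to 0.77 with 1 library left out, without KO untreated replicate 3. Of 75 named calls 38 were lost without some single library. The cause was not tested.

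Of 18 correlations between deviations of same-numbered samples 2 were over 0.1, with a median of -0.07. Both lay between wild type copper and untreated KO libraries, at 0.59 for replicate 3 and 0.46 for replicate 1, while replicate 2 gave -0.16. Of 36 pairs with other numbers 10 were over 0.1, the largest at 0.38. Most same-numbered samples thus did not deviate together, but those pairs did. With the replicate number as a block, 3 members were higher and 7 lower in KO in copper, 0 passed for the difference, and 17 of the 75 named calls were lost. The other counts with the block were 17 and 3, 26 and 26, and 40 and 8. At 0.783 to 3.07 CPM for 3 counts, members near the floor of 5 CPM rest on few counts per library.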

Other observations

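Other zinc finger families with a mean of at least 5 CPM are given as a description, with no test of a difference from the ZNF genes or from all genes. Of 27 ZBTB genes, which join a BTB domain to zinc fingers, 4 rose and 0 fell with copper in wild type cells by edgeR's test with 12 libraries (median log2 fold change 0.17), where 2 were lower at an unadjusted p under 0.05 and DESeq2 and limma voom each called 1 lower, and 8 rose and 2 fell with 9 libraries. In KO cells 7 rose and 4 fell. Of 17 ZSCAN, ZKSCAN and ZFP genes 0 passed with copper in wild type cells by edgeR's test with 12 libraries, 2 were higher and 0 lower at an unadjusted p under 0.05, DESeq2 called 2 higher, and with 9 libraries 3 rose and 1 fell. In untreated KO cells 5 of them were higher (median 0.32). Of 8 KLF genes, 3 rose and 1 fell with copper in each line, and 4 were lower in untreated KO cells. All tested genes gave 8.23% and 6.68% with copper in wild type, 15.2% and 18.5% with copper in KO cells, and 17.9% and 14.0% for untreated KO.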
